A study of Canis lupus familiaris with 16 samples.

Results

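RIC3, ELAVL3, BBX and ZMAT1 were 4 of the 41818 genes counted in 16 canine soft tissue sarcomas, and 4 of the 15408 genes with enough counts to test. They were chosen because their read counts were much lower in the molecularly defined fibrosarcomas (FS) than in the tumors of the perivascular wall (PWT) and of the peripheral nerve sheath (PNST) in the same series. The fall in FS is therefore the basis of the choice, and it is described here without a test. All 4 genes passed the filter on low counts, RIC3, ELAVL3 and ZMAT1 only through the PNST and PWT.

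RNA was extracted from sections of archived formalin-fixed, paraffin-embedded tumors of pet dogs, and no treatment or normal tissue was part of the comparison. By molecular identity, 4 tumors were FS, from dogs aged 9 to 13 years, 6 were PNST, aged 8 to 13 years, and 6 were PWT, aged 2 to 14 years. S2-08 was an FS by histology and a PWT by molecular identity, and S1-10 was a PWT by histology and a PNST by molecular identity. Both were moved on the basis of gene expression, so the groups were not drawn independently of the values compared. Tumor names begin with S1 or S2, a possible sequencing group, and the prefix was uneven, with 3 S1 tumors among the FS, 5 among the PNST and 1 among the PWT. S1-04 and S1-05, both PNST, carry identical labels and may come from 1 dog. Each tumor had 507728 to 4311876 counts on genes, with a range of 507728 to 2781899 in FS. Levels are given as CPM, the count scaled to the size of each library with TMM normalization, and since CPM is not corrected for gene length, levels of different genes are not compared. In bulk tumor RNA, fewer cells of a type and less RNA per cell cannot be told apart.

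RIC3 is a chaperone of the endoplasmic reticulum that helps nicotinic acetylcholine receptors, above all those made of the alpha7 subunit, and serotonin 5-HT3 receptors to assemble and reach the cell surface. ELAVL3, also called HuC, is an RNA-binding protein of the Hu family that binds AU-rich sequences in messenger RNA and is known mainly from neurons, where such proteins control splicing, stability and translation. BBX, named after the fly gene bobby sox, encodes a transcription factor with a high mobility group (HMG) box, a DNA-binding fold shared with the SOX and TCF families. ZMAT1 encodes a protein with matrin-type zinc fingers, and little is established about its function. In the dog gene table of the UU_Cfam_GSD_1.0 assembly, all 4 are protein coding, with RIC3 on chromosome 21, ELAVL3 on chromosome 20, BBX on chromosome 33 and ZMAT1 on chromosome X. The reads had been aligned to another assembly, so no coordinates are given.

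RIC3 reads were nearly lacking in FS. The level was 2.81 CPM in S1-02, 0.539 CPM in S1-11, 3.61 CPM in S1-12 and 2.32 CPM in S2-06, from 8, 1, 2 and 5 counts. In PNST it ranged from 59.2 CPM in S1-04 to 128 CPM in S1-10, with a median of 103.5 CPM, and in PWT from 70.2 CPM in S2-04 to 160.2 CPM in S2-08, with a median of 113.9 CPM. Every FS lay below every PNST and PWT, which held for 1.68% of all genes tested and, in keeping with how they were chosen, for all 4 genes. The lowest of the other 12 tumors stood 16.4-fold above the highest FS. The mean in FS was 2.32 ± 1.30 CPM (SD, n = 4), which was 2.34% of the mean in PNST (99.1 ± 24.3 CPM, n = 6) and 2.05% of that in PWT (113.5 ± 31.9 CPM, n = 6). Over pooled reads, 2699 counts in the 12 PNST and PWT stood against 16 in the 4 FS, a 48.2-fold difference per read with an exact 95% interval of 29.6 to 84.4 for counting error only. The variation among the FS, 56.1% of their mean, was no larger than the 64.2% expected from such small counts alone, so no order among the 4 FS can be read from RIC3.

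ELAVL3 was also close to its counting limit in FS. Its level was 0.351 CPM in S1-02, 2.70 CPM in S1-11, 1.81 CPM in S1-12 and 0.465 CPM in S2-06, which rest on 1, 5, 1 and 1 counts. PNST ranged from 14.4 CPM in S2-07 to 79.0 CPM in S1-09 (median 54.4), and PWT from 24.1 CPM in S2-03 to 67.7 CPM in S1-07 (median 41.6). The groups again did not overlap, although the gap, 5.33-fold between S2-07 and S1-11, was narrower than for RIC3. Mean levels were 1.33 ± 1.13 CPM in FS (n = 4), 51.3 ± 27.3 CPM in PNST (n = 6) and 41.9 ± 15.5 CPM in PWT (n = 6). The pooled difference was 44.5-fold, with a counting interval of 22.5 to 103.2 that rests on 8 counts in all FS.

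BBX was reduced in FS but clearly present. The level in FS was 77.3 CPM in S1-02, 131.0 CPM in S1-11, 45.1 CPM in S1-12 and 46.9 CPM in S2-06, from 220, 243, 25 and 101 counts. PNST ranged from 200.4 CPM in S1-03 to 563.7 CPM in S2-07 (median 502.8), and PWT from 335.8 CPM in S2-09 to 770.7 CPM in S2-11 (median 406.6). No tumor overlapped, but S1-11 and S1-03 lay only 1.53-fold apart, the smallest gap of the 4 genes. The mean in FS, 75.1 ± 40.1 CPM (n = 4), was 17.1% of that in PNST (439.7 ± 146.2 CPM, n = 6) and 15.9% of that in PWT (473.8 ± 166.5 CPM, n = 6). Here the FS differed among themselves, with 53.4% variation where counting alone would give 9.44%.

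ZMAT1 was lowest in S2-06, with 1.86 CPM, followed by 2.70 CPM in S1-11, 5.42 CPM in S1-12 and 13.0 CPM in S1-02, from 4, 5, 3 and 37 counts. PNST ranged from 36.5 CPM in S2-07 to 75.3 CPM in S1-05 (median 43.1), and PWT from 53.4 CPM in S2-08 to 97.7 CPM in S2-04 (median 62.7). The gap to the lowest other tumor was 2.81-fold, and it was set by S1-02, which held 37 of the 49 ZMAT1 counts seen in FS. Means were 5.74 ± 5.07 CPM in FS (n = 4), 47.9 ± 14.6 CPM in PNST (n = 6) and 68.2 ± 16.5 CPM in PWT (n = 6).

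**Figure D1:**
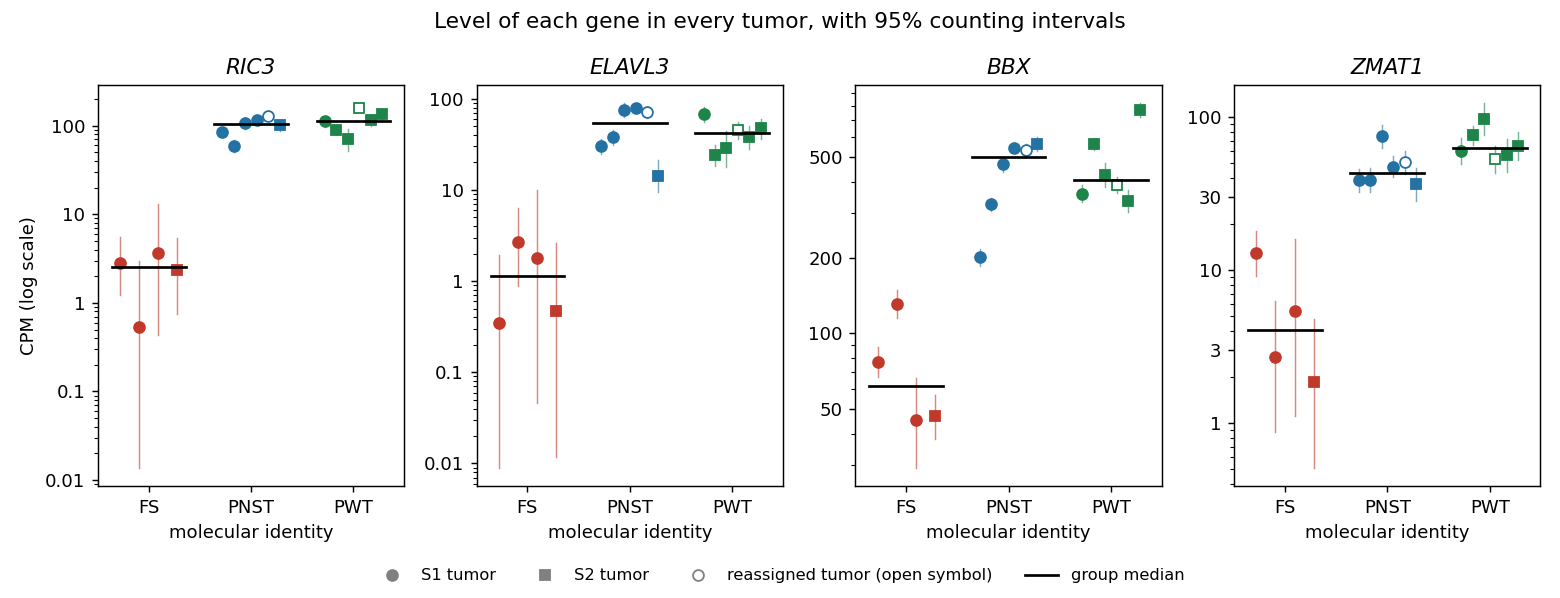
CPM on a log axis of each gene in every tumor, by molecular identity, with circles for S1 tumors, squares for S2 tumors, open symbols for S1-10 and S2-08, thin lines for 95% counting intervals and black bars for group medians. The 4 FS lie below all 12 other tumors in each panel, with the widest gap for RIC3 (16.4-fold) and the narrowest for BBX (1.53-fold).

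BBX and ZMAT1, whose levels among the FS varied beyond counting (53.4% against 9.44% for BBX, 88.3% against 35.6% for ZMAT1), were highest in different FS, BBX in S1-11 and ZMAT1 in S1-02. The variation of ELAVL3 among the FS, 84.7%, was about that of counting, 84.5%, so no order was read from it or from RIC3.

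In the model fitted across all genes, which described the differences on a log2 scale, the value in FS minus the mean of PNST and PWT was -5.57 for RIC3 (SE 0.41), -5.26 for ELAVL3 (SE 0.64), -3.23 for ZMAT1 (SE 0.43) and -2.58 for BBX (SE 0.38). Among the 632 genes called lower in FS, which were 4.10% of the genes tested, they ranked 12, 15, 84 and 156 by size of the fold change. A gene was called where the adjusted p-value was under 0.05 and the log2 fold change was over 1 in size. Against PNST alone the differences were -5.47, -5.41, -2.97 and -2.53 for RIC3, ELAVL3, ZMAT1 and BBX, and against PWT alone -5.67, -5.12, -3.48 and -2.64. These comparisons share the same 4 FS, and genes called in either direction were 7.13% of those tested against PNST, 11.2% against PWT and 10.8% against both.

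Values within each prefix were examined, since the prefix was uneven over the groups. In S1 tumors, the highest FS and the lowest of the 6 others stood at 3.61 and 59.2 CPM for RIC3, 2.70 and 30.1 CPM for ELAVL3, 131.0 and 200.4 CPM for BBX and 13.0 and 38.6 CPM for ZMAT1. The S2 tumors held a single FS, S2-06, which was below the lowest of 6 others at 2.32 against 70.2 CPM for RIC3, 0.465 against 14.4 CPM for ELAVL3, 46.9 against 335.8 CPM for BBX and 1.86 against 36.5 CPM for ZMAT1. FS were thus below every other tumor within both prefixes. That follows from the lack of overlap over all tumors, by which the genes were in effect chosen, and is no separate check of the prefix. With the prefix as a term in the model, the difference between FS and PWT was -5.65 for RIC3, -5.98 for ELAVL3, -3.83 for ZMAT1 and -2.56 for BBX.

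S2-08, the tumor read as FS by histology, had none of the low levels of the FS. Its RIC3 level of 160.2 CPM was the highest of all 16 tumors, 44.4-fold above the highest FS and 1.54-fold above the mean of the other 5 PWT. ELAVL3, at 45.3 CPM, was 16.8-fold above the highest FS and ranked 6 of the 12 PNST and PWT. BBX, at 387.9 CPM, and ZMAT1, at 53.4 CPM, stood 2.96-fold and 4.11-fold above the highest FS and ranked 8 and 7 of 12. S2-08 had the lowest ZMAT1 level of the 6 PWT, but 5 of the 6 PNST were lower. S1-10 lay within the range of the PNST and PWT for all 4 genes, at ranks 3, 3, 5 and 8 of 12 for RIC3, ELAVL3, BBX and ZMAT1. Since both tumors were placed by their expression, these positions are a description. Where tumors were grouped by histology, with S2-08 among the FS, the log2 difference between FS and PNST shrank to -1.43 for RIC3, -2.17 for ELAVL3, -1.60 for BBX and -1.58 for ZMAT1.

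PNST and PWT were compared next, because this contrast was not itself used to choose the genes. All 4 are, however, in the study's list of the genes most clearly lower in FS than in both other types together. Such a choice can favor genes that differ little between PNST and PWT, so the test is not fully independent of it. None of the 4 genes was called, where 26 genes or 0.169% of those tested were (3013 at an unadjusted p-value under 0.05). DESeq2 called 519 genes in this contrast and none of the 4. The log2 difference, PNST minus PWT, was -0.20 for RIC3 (SE 0.26, 95% interval -0.75 to 0.34, adjusted p = 0.688, edgeR quasi-likelihood test) and -0.11 for BBX (SE 0.32, interval -0.78 to 0.56, adjusted p = 0.872). ELAVL3 differed by 0.29 (SE 0.39, interval -0.54 to 1.11, adjusted p = 0.707) and ZMAT1 by -0.51 (SE 0.33, interval -1.20 to 0.18, adjusted p = 0.394). Differences of up to about the ends of these intervals remain possible. For ELAVL3 the direction depended on the prefix, with a difference of -0.75 (SE 0.46, adjusted p = 0.773) when the prefix was a term in the model. Without S1-10 and S2-08, the differences were -0.16, 0.20, -0.22 and -0.58 for RIC3, ELAVL3, BBX and ZMAT1, and again none was called.

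**Figure D2:**
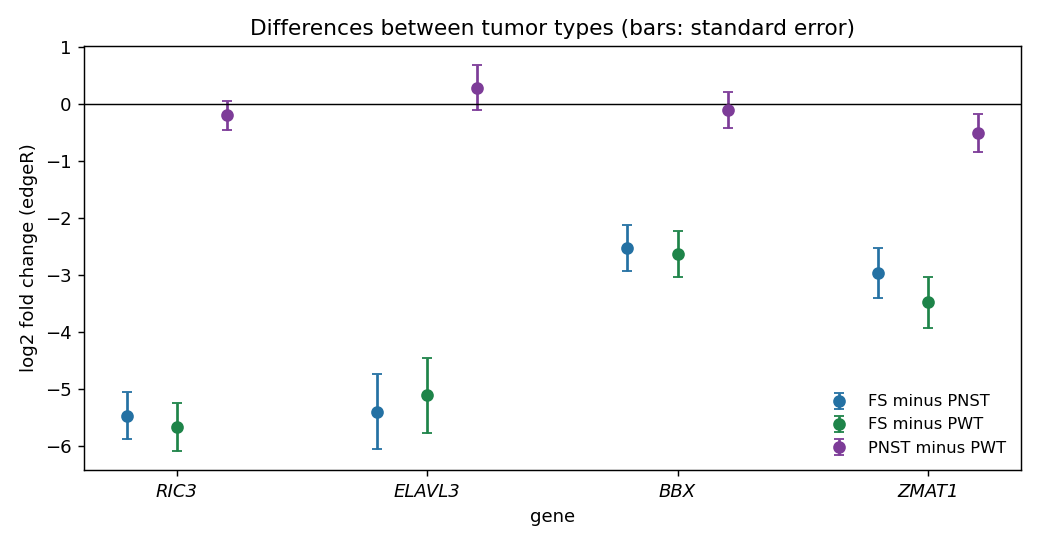
Log2 fold changes from the model across all genes, with bars for standard errors, for FS minus PNST, FS minus PWT and PNST minus PWT. The FS differences lie between -5.67 and -2.53, while those between PNST and PWT lie between -0.51 and 0.29.

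The uniformity of the genes in PNST and PWT was described by the coefficient of variation, the SD as a percentage of the mean. RIC3 varied by 24.5% among the 6 PNST and 28.1% among the 6 PWT, with counting alone giving 6.38% and 7.83%. ZMAT1 was about as even, at 30.4% and 24.2%. BBX varied by 33.2% in PNST and 35.2% in PWT although its counts were the highest of the 4, and ELAVL3 varied most, by 53.3% and 37.1%. From the lowest to the highest of the 12 tumors, the level rose 2.68-fold for ZMAT1, 2.71-fold for RIC3, 3.85-fold for BBX and 5.50-fold for ELAVL3.

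Leaving out the most extreme tumor lowers the variation by construction, and by how much differed between the genes. For RIC3 the lowest value with 1 tumor left out was 15.04% in PNST (without S1-04) and 21.8% in PWT (without S2-04). For ELAVL3 it was 39.0% in PNST (without S2-07) and 27.5% in PWT (without S1-07), and for BBX 20.0% in PNST (without S1-03) and 21.9% in PWT (without S2-11). For ZMAT1 it was 14.7% in PNST (without S1-05) and 14.4% in PWT (without S2-04).

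RIC3 and ZMAT1 were not unusually even for their level. Of the 2825 genes with a mean between 0.5 and 2 times that of RIC3, 52.6% varied more, and 55.6% of 4387 such genes varied more than ZMAT1. For BBX the share was 47.2% of 489 genes, and for ELAVL3 16.1% of 4920 genes. Against the 631 other genes called lower in FS, whose median variation was 40.9%, RIC3 and ZMAT1 were on the even side, with 87.5% and 87.0% varying more, while the shares for BBX and ELAVL3 were 68.8% and 36.9%. Gene level was not matched in this last comparison. A choice of genes by a clear fall in FS can also favor small variation in PNST and PWT.

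**Figure D3:**
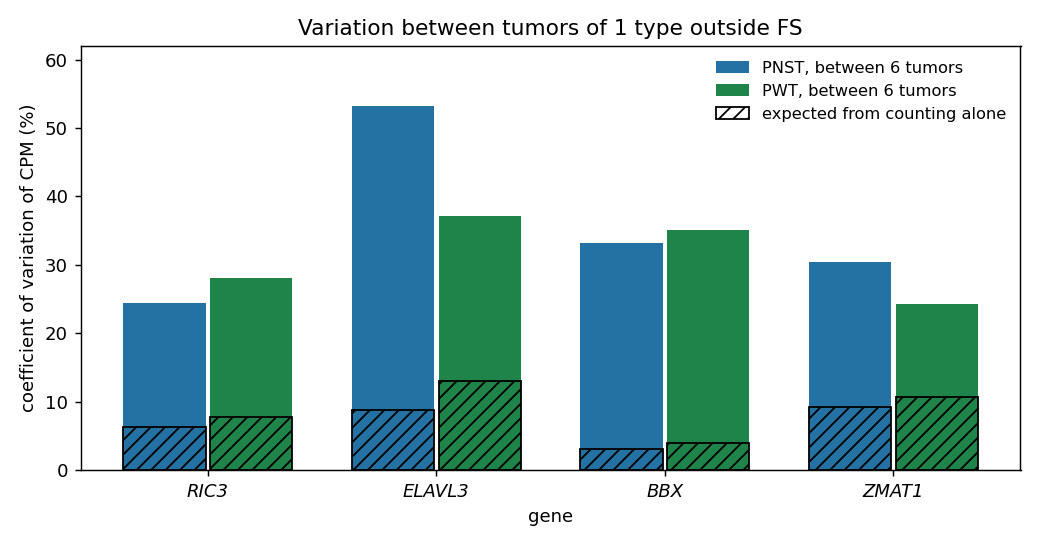
Coefficient of variation of CPM, in percent, among the 6 PNST and among the 6 PWT for each gene, with hatched bars for the variation expected from counting alone. ELAVL3 varied most (53.3% in PNST), and in every case the variation was above that of counting.

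Among the PNST and PWT, ELAVL3 ranged from 30.1 to 79.0 CPM in the 6 S1 tumors and from 14.4 to 47.3 CPM in the 6 S2 tumors. S2-07, the only S2 tumor among the PNST, was the lowest of the 6 PNST in ELAVL3 and ZMAT1 and the highest in BBX. With a single S2 tumor among the PNST, the prefix and the tumor cannot be told apart there.

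S1-04 and S1-05, which have identical labels, differed in all 4 genes in the same direction. S1-05 was higher than S1-04 by 1.80-fold for RIC3, 1.99-fold for ELAVL3, 1.45-fold for BBX and 1.94-fold for ZMAT1. The median log2 ratio of these tumors over all 15408 genes was -0.01, and the middle 90% of genes ran from -1.31 to 1.04. The 4 genes had log2 ratios of 0.84, 0.98, 0.53 and 0.95, all inside that range, with 92.2%, 94.4%, 83.6% and 94.0% of genes below them. Between repeated runs of the same S1 tumor, in those with at least 100 counts of the gene, the highest-to-lowest ratio had a median of 1.10 and a maximum of 1.47 for RIC3, 1.24 and 1.64 for ELAVL3, 1.11 and 1.29 for BBX and 1.31 and 2.03 for ZMAT1. For ZMAT1 the maximum came from single runs of S1-09, with 63 and 33 counts, while S1-05 and S1-04 were compared on summed runs. Scaled to run totals, single runs of ZMAT1 were at 80.0 to 88.3 CPM in S1-05 and 35.7 to 49.3 CPM in S1-04.

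ZMAT1 lies on chromosome X, and its level was compared by sex in the PNST and PWT. In 8 females it ranged from 36.5 to 97.7 CPM (mean 60.0 ± 22.0), and in 4 males from 47.4 to 65.0 CPM (mean 54.1 ± 7.68), so that the males lay inside the range of the females. The difference of mean log2 levels, females minus males, was 0.07 (exact permutation test, two-sided, p = 0.784).

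Genes that work with or resemble the 4 genes were examined in the same model, in lists of 64 tested genes beside the 4. In FS, 9 were called higher and 8 lower, where the shares of all genes tested were 6.70% higher and 4.10% lower. None of the 64 was called between PNST and PWT, and 17 had an unadjusted p-value under 0.05 there. The lists were drawn up with earlier results of these data known.

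Of the nicotinic receptor subunits, clients of RIC3, 7 of 16 were tested, and 1 rose and 1 fell in FS. CHRNA7, the alpha7 subunit that RIC3 is best known to assist, was at 3.25 to 10.2 CPM in FS, 1.79 to 5.63 CPM in PNST and 0 to 1.61 CPM in PWT, a log2 difference of 2.00 (SE 0.42, adjusted p = 0.00502). CHRNA7 was thus highest where RIC3 was lowest, although FS and PNST overlapped. CHRNB2, a beta subunit of neuronal receptors, fell by 2.11 on the log2 scale (SE 0.52, adjusted p = 0.0129), from 15.2 to 54.9 CPM in PNST and 2.75 to 19.7 CPM in PWT to 1.76 to 8.83 CPM in FS. CHRNB2 passed the filter only with tumors outside FS, which favors a low value in FS. Of the receptor chaperones and partners, 16 were in the count table and 5 were tested. The 5 were LY6E, LY6H, AGRN, LRP4 and ACHE. None of the 5 was called in FS, and 0 of them had an unadjusted p-value under 0.05. TMEM35A of this list was below the filter, so the result does not cover it. The serotonin receptor genes HTR3A and HTR3B were also below the filter.

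ELAVL3 was the only neuronal Hu gene above the filter on low counts. ELAVL1, or HuR, the relative found in most cells, was at 14.8 to 28.6 CPM in FS, 20.1 to 26.3 CPM in PNST and 15.2 to 33.1 CPM in PWT, with a log2 difference of 0.04 (SE 0.22, adjusted p = 0.936). ELAVL2 reached at most 5.11 CPM and ELAVL4 at most 0.739 CPM in any tumor, and neither was tested. Of 12 other RNA-binding proteins of neurons tested, 4 were lower and 1 was higher in FS. The 4 lower genes were NOVA1, NOVA2, CELF3 and CELF5. All 4 passed the filter only with tumors outside FS, which favors low values in FS. The splicing regulators NOVA2 and NOVA1 had log2 differences of -2.32 (adjusted p = 0.00295) and -1.37 (adjusted p = 0.0493), and CELF3 of -2.48 (adjusted p = 0.0177). CELF5 had 0 counts in all FS and 115 in the other 12 tumors, where it was at least 10.9-fold higher, taking 3 counts over the 4 FS, or 0.405 CPM, as the limit. MSI2, a translational regulator of stem and progenitor cells, rose by 1.97 (adjusted p = 0.00443).

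Among the HMG-box genes, the family of BBX, 28 others were tested, and 7 were higher and 1 was lower in FS. TCF7L2, a partner of beta-catenin in Wnt signaling, was lower, at 26.7 to 80.3 CPM in FS against 114.4 to 223.7 CPM in PNST and 93.3 to 126.3 CPM in PWT (log2 difference -1.45, SE 0.27, adjusted p = 0.00237). Its close relative TCF7L1 was higher, at 13.4 to 38.8 CPM in FS against 6.08 to 15.5 CPM in PNST and 1.48 to 9.59 CPM in PWT (log2 difference 1.82, SE 0.34, adjusted p = 0.00224). SOX6, a developmental transcription factor, HMGB3, a chromatin protein, UBTF, which acts in ribosomal RNA transcription, and NSD2, a histone methyltransferase, rose by 3.22, 2.54, 1.30 and 1.05.

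Of the matrin-type zinc finger genes, the family of ZMAT1, 11 others were tested, and 2 were lower and 0 higher in FS. ZFR2 was at 0 to 6.04 CPM in FS, 11.1 to 34.9 CPM in PNST and 7.26 to 34.7 CPM in PWT (log2 difference -2.39, SE 0.53, adjusted p = 0.00665), and ZNF638 fell by 1.03 (adjusted p = 0.00969). ZFR2 passed the filter only with tumors outside FS, which favors a low value in FS. ZMAT2, part of the splicing machinery, and ZMAT3, a target of p53 that binds RNA, were not called, with log2 differences of -0.22 (adjusted p = 0.572) and 0.07 (adjusted p = 0.956). ZMAT4 and ZMAT5 were below the filter, at no more than 3.95 and 5.74 CPM in any tumor.

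**Figure D4:**
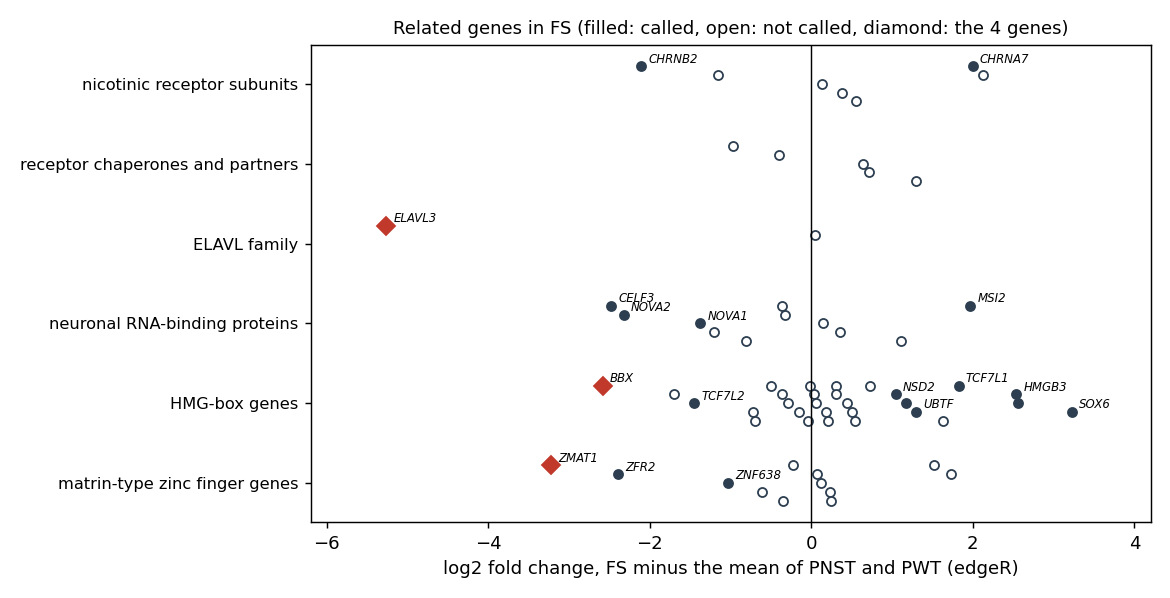
Log2 fold change, FS minus the mean of PNST and PWT, of each tested gene in 6 lists, with filled circles for called genes, open circles for others and red diamonds for ELAVL3, BBX and ZMAT1, whose own falls were the basis of their choice. CELF5, with 0 counts in FS, is left out. Outside the diamonds, the called genes lay on both sides of 0, from -2.48 for CELF3 to 3.22 for SOX6.

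Markers of cell types that the sections could hold were followed beside the 4 genes. Of 77 tested markers in 11 lists, 11 were called higher and 8 lower in FS, where 6.70% of all genes tested were higher and 4.10% lower. Of the neuron markers, 4 of 6 tested genes were lower in FS (TUBB3, NEFH, STMN2 and SYP) and none higher. None of these 4 genes reached 10 counts in all 4 FS. They passed the filter on low counts only with tumors outside FS, which favors low values in FS among those tested. GAP43 and RBFOX3 were not called, with log2 differences of -0.97 and -1.21. The summed level of the 12 listed neuron markers was 18.1 to 66.3 CPM in FS, 82.1 to 792.8 CPM in PNST and 51.0 to 357.6 CPM in PWT, and 3 of the 12 were at 0 in all FS. Their levels were uneven, since STMN2 reached 451.0 CPM, TUBB3 147.8 CPM, SYP 39.5 CPM and NEFH 28.9 CPM in single PNST or PWT, while the neurofilament genes NEFL and NEFM and the related INA stayed at or below 3.32 CPM in all 16 tumors. Of the markers of adventitial fibroblasts, the fibroblasts around vessels, 4 of 9 were lower (CLEC3B, SEMA3C, TNXB and ABCA9) and DPP4 was higher. CLEC3B passed the filter only with tumors outside FS. PI16, CD34, MFAP5 and PCOLCE2 were not called. The sum of the list was 503.7 to 1850.0 CPM in FS, 3570.0 to 6047 CPM in PNST and 2869 to 5940.0 CPM in PWT. TNXB was a large part of it, with medians of 239.2 CPM in FS, 2888 CPM in PNST and 2073 CPM in PWT. The study itself had listed CLEC3B, TNXB and ABCA9 as lower in FS, so the gap between these sums was favored beforehand. The part of these cells in the levels of RIC3, ELAVL3, BBX and ZMAT1 was not tested.

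Schwann cell markers, in contrast, did not set PNST apart. None of the 4 tested genes was called in FS (0 at an unadjusted p-value under 0.05) or between PNST and PWT (1 at an unadjusted p-value under 0.05), and the sums overlapped, at 22.3 to 94.9 CPM in FS, 26.6 to 93.4 CPM in PNST and 16.1 to 44.3 CPM in PWT. General fibroblast markers were split, with 4 of 10 higher in FS (COL1A1, COL3A1, COL5A1 and LUM) and none called lower. S1-11 held 75336 of the 117226 COL1A1 counts, 66368 of the 96799 COL3A1 counts and 1139 of the 2375 LUM counts in FS. The median of COL3A1 was 6264 CPM in FS, 5024 CPM in PNST and 3102 CPM in PWT. DCN, PDGFRA and FAP of that list had log2 differences of -1.38, -0.85 and -1.11, with adjusted p-values of 0.103, 0.0921 and 0.144. Pericyte and smooth muscle markers were higher for 3 of 12 (MCAM, ACTA2 and CNN1). These 3 peaked in S1-11, at 163.9, 209.7 and 56.1 CPM, against medians of 62.3, 54.1 and 9.88 CPM over the 4 FS. It held 304 of 535, 389 of 521 and 104 of 127 of their counts in FS. Endothelial, T cell, keratinocyte and adipocyte markers had no called gene in FS, while 1, 0, 0 and 2 of their genes passed 0.05 before adjustment. The macrophage list had 1 of 8 higher (C1QB) and the skeletal muscle list 2 of 3 (MYH7 and DMD). The skeletal muscle genes peaked in 1 FS, S1-11, with 231 of the 245 MYH7 counts in FS (124.6 CPM, against a median of 3.03 CPM over the 4 FS). ACTA1 and MYH2, below the filter, were at 314.9 and 174.2 CPM there. S1-11 was also the FS with the highest BBX level, and the part of skeletal muscle in it was not tested.

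The 5 tested genes on each side of each gene were read from the gene order of UU_Cfam_GSD_1.0. Calls among them are to be read against the 4.10% of all genes called lower and the 6.70% called higher. Of the 10 neighbors of RIC3, 0 were called lower in FS, although 7 had values below 0 and the median was -0.32. TUB and SYT9 were called higher, by 2.16 (SE 0.36, adjusted p = 0.00117) and 2.41 (SE 0.56, adjusted p = 0.00953) on the log2 scale. TUB overlaps RIC3 in that assembly, and it was at 73.0 to 151.6 CPM in FS against 6.88 to 47.0 CPM in the other tumors, the opposite of RIC3. Beside ELAVL3, PLPPR2 and CCDC159 were lower, with log2 differences of -3.28 (SE 0.46, adjusted p = 0.000340) and -3.45 (SE 0.50, adjusted p = 0.000422), and CNN1 was higher at 2.47 (adjusted p = 0.0162). Of the 127 CNN1 counts in FS, 104 were in S1-11. PLPPR2 was at 1.05 to 7.22 CPM in FS and 11.9 to 52.5 CPM in the other tumors, and CCDC159 at 0 to 1.86 and 5.17 to 21.9 CPM. PLPPR2 and CCDC159 passed the filter on low counts only with tumors outside FS, which favors low values in FS. Both lower genes lie on the same side of ELAVL3, at places 3 and 4, while the genes in between, PRKCSH and SWSAP1, were not called, with 0.39 (adjusted p = 0.324) and -0.64 (adjusted p = 0.371). PRKCSH overlaps ELAVL3.

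Around BBX, CBLB and DZIP3 were lower in FS, with log2 differences of -1.04 (adjusted p = 0.0377) and -1.07 (adjusted p = 0.0202), and the median of the 10 neighbors was -0.82. LOC119867321, which overlaps BBX, was at no more than 11.8 CPM in any tumor. Around ZMAT1, BEX4 was lower at -1.93 (adjusted p = 0.00461) and GPRASP2 higher at 1.85 (adjusted p = 0.0349), and no gene overlapped it. Each gene had a lower fitted value than any of its tested neighbors, for BBX by less than its SE, with LOC119867321 at -2.40. Because the genes were chosen for low values in FS, this order was favored beforehand and is a description only. A strand setting for the counting is not given in the sources used here. Reads of RIC3, ELAVL3 and BBX and of the genes that overlap them may therefore have been mixed or dropped.

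**Figure D5:**
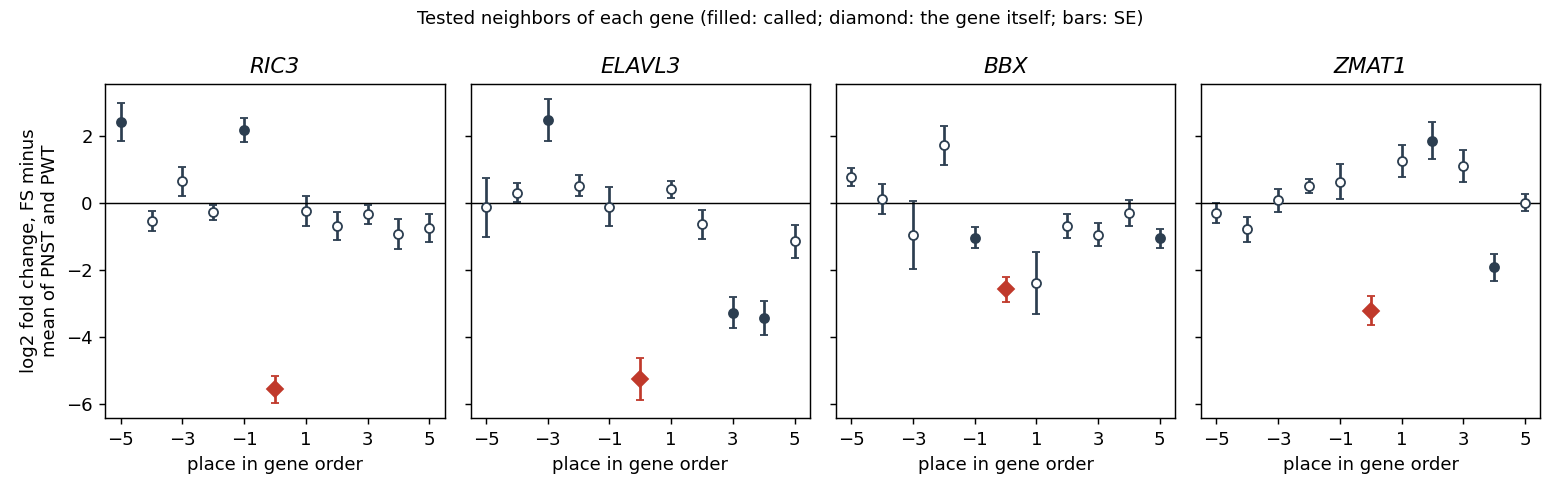
Log2 fold change in FS, minus the mean of PNST and PWT, of the 5 tested genes on each side of each gene, by place in gene order, with bars for standard errors, filled circles for called genes and red diamonds for the gene itself. PLPPR2 and CCDC159 beside ELAVL3 are the lowest neighbors, at -3.28 and -3.45.

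Genes whose levels across tumors were most like those of the 4 genes were listed by Pearson's r of log2(CPM + 0.5), as a description. Over all 16 tumors, which share the drop in FS and the depth of each library, RIC3 was most like LOC102155852 (r = 0.968), CAVIN2 (0.962), a protein of caveolae, and DNAH3 (0.959), a dynein heavy chain. The 3 genes most like ELAVL3 included MAPK11 (r = 0.931) and IGSF9B (0.930). BBX was most like PEG3 (r = 0.942), an imprinted zinc finger gene, ABCB11 (0.923) and FGD6 (0.916), and ZMAT1 like RNGTT (0.943), which caps messenger RNA, DEPTOR (0.940), an inhibitor of mTOR, and ABCB11 (0.940). All of the genes named here except RNGTT were themselves called lower in FS.

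Within the 12 PNST and PWT, the likeness changed. The 4 genes were alike among themselves over 16 tumors, with r from 0.868 to 0.931, but only from 0.0213 to 0.417 over the 12. The genes most like RIC3 were then CYSTM1 (r = 0.878), EXOC2 (0.865) and ELOA (0.854), and those most like ELAVL3 were SIPA1L3 (0.914), CSRP1 (0.906) and RCAN2 (0.896). BBX was most like KBTBD3 (0.894), KRT25 (0.893) and LOC119871955 (0.832), and ZMAT1 like LOC111098257 (0.931), MOSMO (0.899) and LOC106560187 (0.882).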

How the data were processed

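Counts of reads per gene were deposited by the authors without normalization, in 34 columns of sequencing runs. According to the methods of the study, Ion Proton reads were aligned to ROS_Cfam_1.0 with STAR and counted with htseq-count, and versions and strand setting are not given in the sources used here. The 3 runs of each of 9 tumors were summed, and 7 tumors had 1 run. The 5 rows of reads not assigned to a gene were left out, and 22.9% to 30.6% of the reads listed per tumor were on genes.

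Genes that reached 10 counts in 4 or more tumors were tested with edgeR 4.0.16 (R 4.3.3) after TMM scaling, by quasi-likelihood in 1 model of the 3 molecular groups, with Benjamini-Hochberg adjustment over 15408 genes. Calls needed an adjusted p-value under 0.05 and a log2 fold change over 1 in size. The test was checked on simulated data. The labels do not state that all tumors came from separate dogs, so p-values measure only the spread between these samples. Intervals of counts (exact, 95%) cover counting error only. DESeq2 1.42.0, other filters, other scaling, the prefix as a term and omission of tumors were tried as alternatives. The permutation test used scipy 1.17.1. Of 15408 tested symbols, 15061 matched the gene table, which was used for names, chromosomes and order only.

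The 4 genes and the lists were chosen with earlier results of these data known. Genes named beside them were the called genes of each list (the 6 with the smallest p-value where more were called), the relatives of ELAVL3 and ZMAT1, called neighbors, and the 3 most alike genes over 16 and over 12 tumors, of which some items are not reported here. HTR3A, HTR3B, NEFL, NEFM, INA, DCN, PDGFRA, FAP, ACTA1, MYH2, PRKCSH, SWSAP1 and LOC119867321 were named after their values were seen. LY6E, LY6H, AGRN, LRP4, ACHE and TMEM35A were also named at that stage.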

Additional observations from a re-analysis of the deposited data

Results flagged for a closer look

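The highest or lowest tumor of a group stood apart from the others by Dixon's criterion in 7 of 84 sets, formed by 28 genes in 3 groups. In all 7 it was the highest tumor. Chance alone gives about 1 in 20 for independent sets of normally distributed values. Here CPM was used without a log and the sets share tumors, so that rate may not hold. Among the 4 genes this concerned ZMAT1 in PNST, where S1-05 was at 75.3 CPM and the other 5 were at 36.5 to 50.6 CPM. S1-04, which has the same labels as S1-05, was at 38.7 CPM.

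Among related genes, CHRNB2 was at 54.9 CPM in S1-10 against 15.2 to 29.4 CPM in the other PNST. MSI2 was at 20.9 CPM in S2-03 against 4.86 to 9.64 CPM in the other PWT. ZFR2 was at 34.9 CPM in S1-03 against 11.1 to 17.8 CPM in the other PNST.

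Among neighbors, TUB, which overlaps RIC3, was at 46.8 CPM in S2-09 against 6.88 to 14.6 CPM in the other PWT, while RIC3 in S2-09 was at 116.2 CPM. GPRASP2 was at 27.0 CPM in S1-11 against 5.11 to 7.38 CPM in the other FS. BEX4 was at 30.4 CPM in S2-07 against 9.92 to 17.6 CPM in the other PNST.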

How the results depend on the processing

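No paired analysis was possible because replicate numbers were given in accession order and pair no tumors. Over 25 results, 434 of 499 values under alternatives kept their direction and side of the threshold, or moved by less than the spread between tumors, or stayed within 1.5 times for counts. None of the 4 genes was called between PNST and PWT under any alternative that gave a test, with adjusted p-values from 0.170 to 1.00, and RIC3 and ZMAT1 kept their sign in all. ELAVL3 turned to -0.75 with the prefix as a term, -0.22 in S1 tumors alone and -1.38 in S2 tumors alone, where PWT and PNST respectively had 1 tumor and no test was made. BBX turned to 0.00025 with no filter on low counts, 0.20 in S1 tumors and 0.14 in S2 tumors, and ranged from -0.20 to 0.081 with each tumor left out, turning to 0.020 without S1-03 and 0.081 without S2-11. ZMAT1 moved to -0.96 in S2 tumors. The difference of ZMAT1 between females and males ranged from -0.039 (without S2-04) to 0.16 with each tumor left out, with exact permutation p-values of 0.552 to 0.973.

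The falls in FS kept their direction under all alternatives. With groups by histology they shrank to -1.43, -2.17, -1.60 and -1.58 against PNST and to -1.64, -2.14, -1.85 and -2.10 against PWT for RIC3, ELAVL3, BBX and ZMAT1. In S2 tumors alone, with 1 FS, BBX was at -3.53 against PNST and -3.39 against PWT, ZMAT1 at -4.19 and -5.15, and ELAVL3 at -6.07 against PWT. In S1 tumors alone BBX was at -2.04 against PWT, and with the prefix as a term ELAVL3 was at -5.98 against PWT. With each tumor left out, ELAVL3 ranged from -6.36 to -4.97 against PNST and from -6.07 to -4.67 against PWT, and ZMAT1 from -4.05 to -2.64 and from -4.55 to -3.15. The largest falls came without S1-11 for ELAVL3 and without S1-02 for ZMAT1. Variation with each tumor left out ranged from 21.9% to 39.4% for BBX in PWT, and for ZMAT1 from 14.7% to 34.3% in PNST and from 14.4% to 26.9% in PWT.

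Counts of called genes were less stable. Groups by histology gave 244 genes for FS against both other types in place of 1665, 0 (1873 at an unadjusted p-value under 0.05) against PNST in place of 1099 and 5 against PWT in place of 1726. FS against PNST gave 1767 with DESeq2, 522 in S1 tumors alone and 635 without S1-10 and S2-08, an alternative chosen after seeing the data. FS against PWT gave 895 with the prefix as a term. With each tumor left out, counts ranged from 1080 to 1845 against both types, from 656 to 1201 against PNST and from 1062 to 1898 against PWT, with the lowest counts without S1-11, S1-10 and S1-11. For PNST against PWT, where 26 genes were called, edgeR found 0 with the prefix as a term (1085 at an unadjusted p-value under 0.05), 0 with S1-04 and S1-05 summed (2649), 0 with groups by histology (1540) and 0 without S1-10 and S2-08 (2696). It found 48 from the first run only and 409 with only PNST and PWT in the model, and DESeq2 found 519. With each tumor left out the count ranged from 0 to 226. It was 226 without S2-07, 49, 156, 146 and 85 without the FS S1-02, S1-11, S1-12 and S2-06, 98 without S2-08, and between 0 and 5 without any of the other 10 tumors. The causes of these shifts were not tested. Depth limits RIC3 and ELAVL3 in FS, which rest on 16 and 8 counts.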
